A study of Mus musculus with 8 samples.

Results

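The Cyp2a and Cyp2b genes encode drug-metabolising cytochrome P450 enzymes of the liver. The members described here are Cyp2a4, Cyp2a5, Cyp2a12, Cyp2a22, Cyp2b9, Cyp2b10, Cyp2b13 and Cyp2b23, chosen by name. Of the 8 genes, 7 had a probe that the array files name after them, among 34836 gene names on the array, and 8 of the 55681 probes were named after a member. No probe was named Cyp2a5. Both Cyp2a4 probes also list the RefSeq transcript of Cyp2a5, so that their signal holds Cyp2a4 and Cyp2a5 together.

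Gene expression was measured in the liver of NZO mice, an obese strain that develops diabetes, and of lean B6 mice. Total RNA of each mouse was labelled with Cy3 and hybridised to a 1-colour Agilent array of its own. The 4 NZO mice (NZO/HiBomDife, replicates 7, 3, 9 and 11) and the 4 B6 mice (C57BL/6, replicates 11, 10, 15 and 9) were male, 6 weeks old and had received a high fat diet with 45% fat. The labels name no other treatment, and the diet was shared by both strains. Levels are log2 processed signals relative to the 75th percentile of the same array, and values are listed in the order of the mice above. Between 50.4% and 60.1% of the spots of an array were well above background, and 8 arrays limit the precision of all values. There were 5 slides and 2 scan days. Slide 1 held NZO 3 with B6 10 and 15, slides 2 and 3 held NZO alone, and slides 4 and 5 held B6 alone. For the mice outside slide 1, slide and strain cannot be told apart. Day 1 held NZO 3, 9 and 11 with B6 10 and 15, and day 2 held 1 NZO mouse, NZO 7, with B6 11 and 9, so that a value within day 2 assumes that NZO varies like B6.

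Cytochrome P450 enzymes of these families sit in the endoplasmic reticulum of hepatocytes, where they oxidise drugs, steroids and environmental chemicals with electrons from the reductase Por. Cyp2b10 is the classical target of the constitutive androstane receptor CAR (Nr1i3), which is activated by phenobarbital-like compounds. Cyp2a5 hydroxylates coumarin and oxidises nicotine, Cyp2a4 hydroxylates testosterone, and several members are known to be more abundant in the liver of female than of male mice.

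Probe sequences are shown for the coding stretches that carried 2 of the strain differences below, all in lower case since no position is singled out. The shared Cyp2a4 and Cyp2a5 probe A_52_P9703 is placed by the array files on mm9 at chr7:27098659-27099724 (plus strand). This is a stretch of 1066 bases for a probe of 60 bases, so the probe joins exons on either side of an intron. The Cyp2b9 probe A_52_P256914 lies at chr7:26983484-26983543 (plus strand) within 60 unbroken bases.

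Cyp2a4 and Cyp2a5, A_52_P9703: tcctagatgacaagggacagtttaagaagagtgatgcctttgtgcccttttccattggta

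Cyp2b9, A_52_P256914: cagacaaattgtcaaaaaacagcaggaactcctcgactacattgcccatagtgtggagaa

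The promoters of the members were read from RefSeq sequences on GRCm38.p6, in which all 8 members had an entry. The 100 bases before the start are shown for Cyp2b10, the member with the largest measured difference between the strains, and for the pair that shares its probes. Capitals mark TATAAA, the letters of a TATA box, searched on both strands in the window from 250 bases before to 50 bases after the start.

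Cyp2b10, chr7:25897558-25897657 (plus strand): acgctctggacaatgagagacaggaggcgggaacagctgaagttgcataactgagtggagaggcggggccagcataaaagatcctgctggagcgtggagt

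Cyp2a4, chr7:26307092-26307191 (plus strand): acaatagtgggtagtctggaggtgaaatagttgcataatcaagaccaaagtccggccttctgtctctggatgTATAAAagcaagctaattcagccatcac

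Cyp2a5, chr7:26835239-26835338 (plus strand): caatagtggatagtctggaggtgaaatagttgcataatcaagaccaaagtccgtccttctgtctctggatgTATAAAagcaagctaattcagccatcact

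TATAAA occurred in the promoters of all 4 Cyp2a members and in 0 of the 4 Cyp2b members, against 13.6% of 32851 promoters of the same length. The half-site of nuclear receptors AGGTCA, present in 16.3% of all promoters, was found in Cyp2b9, Cyp2b13, Cyp2b23, Cyp2a4 and Cyp2a5. TTCNNNGAA, a STAT motif held by 8.30% of promoters, occurred in 0 of the 8 members. CCAAT, held by 37.4%, was found in Cyp2b10, Cyp2b23 and Cyp2a12. No match overlapped another, and a match describes the letters of the window only. The start is the one that the RefSeq promoter entries use, which for Cyp2b9, Cyp2b13 and Cyp2a22 lies inside the gene as the gene table gives it. Over the 250 bases before this start, Cyp2a4 and Cyp2a5 differed by 6 edits and Cyp2b9 and Cyp2b13 by 2 edits, whereas Cyp2b10 differed from Cyp2b9 by 75 edits.

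Cyp2b10 and Cyp2b9 were higher in NZO liver, the signal shared by Cyp2a4 and Cyp2a5 was lower, and Cyp2a12 did not pass the thresholds. A probe was tested when all 4 arrays of NZO or all 4 of B6 were well above background, and was called at an adjusted p of at most 0.05 (limma, Benjamini-Hochberg over 27634 probes) together with a log2 fold change of at least 0.7 in either direction. This left 5 of the 8 member probes for 4 of the 7 named genes in the test, while Cyp2a22, Cyp2b13 and Cyp2b23 were too dim. Among the 5 probes 2 were higher and 2 lower in NZO, in a comparison where 4.34% of all tested probes were higher and 5.28% lower. The 2 higher probes, of Cyp2b10 and Cyp2b9, entered the test through NZO alone, so that the count of higher members depends on the filter. With only probes above background on all 8 arrays, 0 member probes were higher and 2 lower. With the unadjusted p the same 2 and 2 probes were called, against 5.16% higher and 7.08% lower among all probes. Of all called probes 45.1% were higher in NZO, and 28.8% with the deposited values, which are neither background-subtracted nor scaled between arrays and with which the median log2 fold change of all probes was -0.15 in place of 0.01. The strains did not overlap for any of the 5 probes, with NZO on the upper side for 3 and on the lower side for 2, against 11.3% and 10.7% of all tested probes. This count also depends on the filter, as 2 of the 3 upper probes entered the test through NZO alone. The 2 lower probes read the same shared signal and are not separate results. As bulk tissue was measured, fewer cells of a type and less RNA per cell cannot be told apart.

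**Figure D1:**
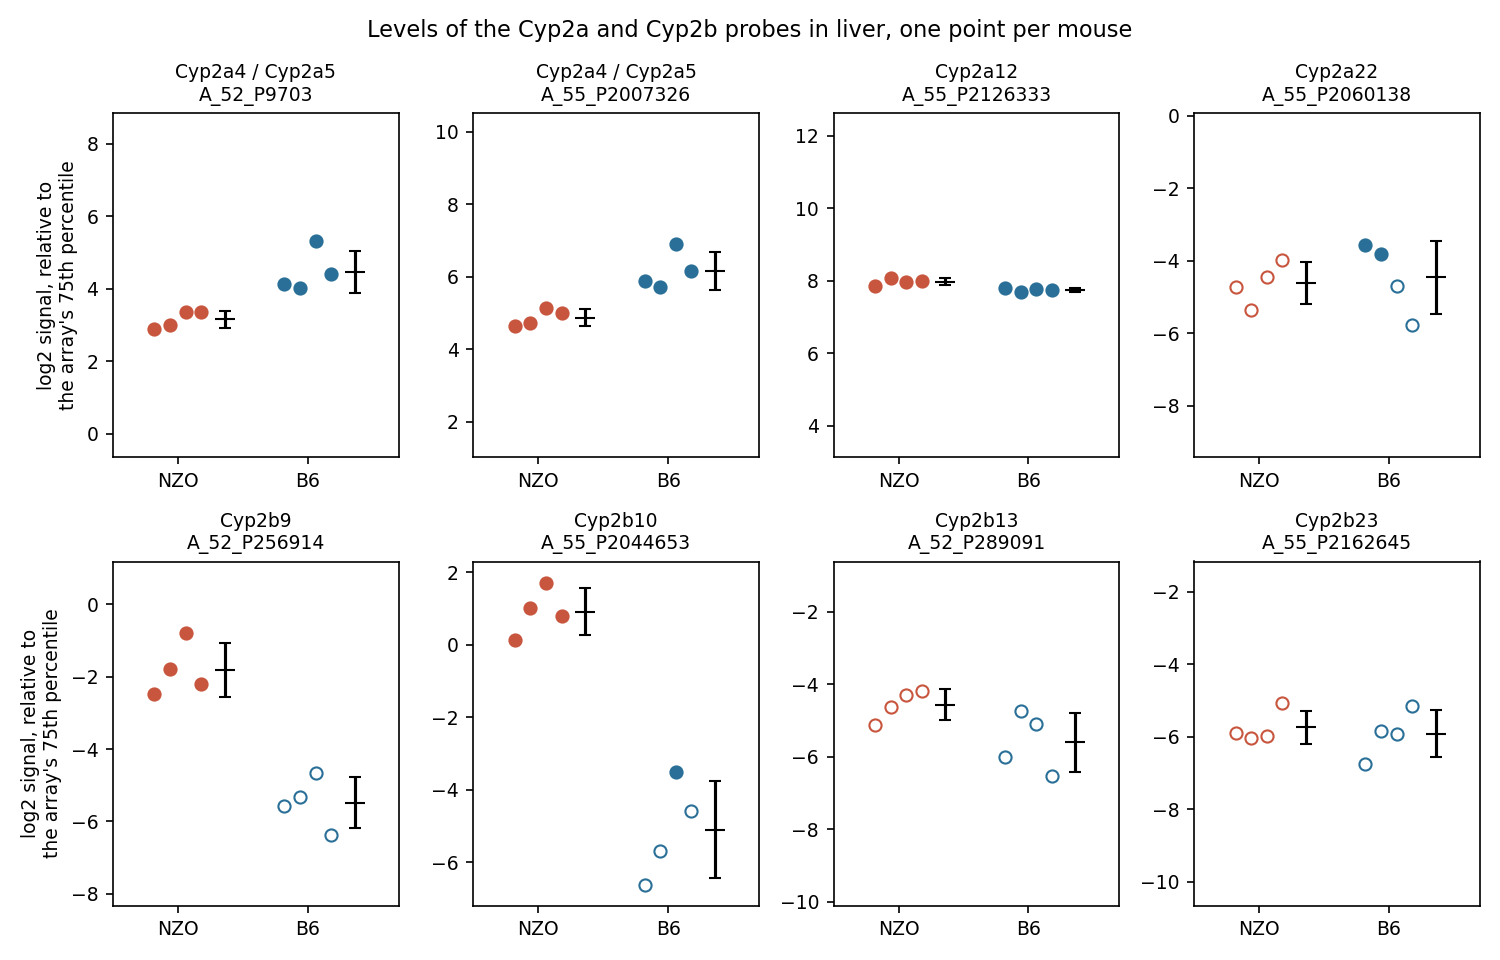
Level of each Cyp2a and Cyp2b probe (y axis, log2 signal relative to the 75th percentile of the array, with the same span in every panel) in NZO and B6 liver. Points are single mice in the order of the text, filled where the probe was well above background and open where it was not, and bars give the mean ± SD of 4 mice. The NZO points of Cyp2b10 and Cyp2b9 lie above all B6 points, those of Cyp2a4 / Cyp2a5 lie below all B6 points, and the points of Cyp2b13, Cyp2b23 and Cyp2a22 are open in most mice.

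Cyp2b10, the phenobarbital-inducible enzyme of the family, had levels of 0.14, 1.02, 1.72 and 0.79 in the NZO mice and of -6.62, -5.69, -3.52 and -4.59 in the B6 mice. The probe A_55_P2044653 (mm9 chr7:26711522-26711581, plus strand) was well above background in 4 of 4 NZO mice and in 1 of 4 B6 mice, which was B6 15. The lowest NZO mouse was thus well above the highest B6 mouse. The spread of the B6 values is largely one of background readings and is not compared with that of NZO. NZO averaged 0.92 ± 0.65 and B6 -5.10 ± 1.35 (SD, n = 4 each). The log2 fold change was 6.02 with a standard error of 0.64 (limma adjusted p 0.000483). With each array floored at its lowest level above background, a setting chosen after seeing the data, the log2 difference was 5.15, or 35.5-fold. As 3 of the 4 B6 mice were at background, the fitted value of 6.02 is a difference against background readings in these mice and no bound. Within scan day 1 the log2 fold change was 5.78 and within scan day 2 it was 5.74, the latter from NZO 7 alone and with an adjusted p of 0.0786. Normexp background correction, which adds an offset, gave 2.43.

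Cyp2b9, an enzyme known to be more abundant in female mouse liver, had levels of -2.49, -1.79, -0.79 and -2.21 in the NZO mice and of -5.59, -5.32, -4.65 and -6.36 in the B6 mice. It was well above background in 4 of 4 NZO mice and in 0 of 4 B6 mice. The strains did not overlap, and the 4 NZO mice took the same order in Cyp2b9 as in Cyp2b10, with NZO 7 lowest and NZO 9 highest. NZO averaged -1.82 ± 0.75 and B6 -5.48 ± 0.71 (SD, n = 4 each). Since B6 had only a bound, the difference is given as NZO being at least 6.39-fold higher. For this, each B6 array was taken at the higher of its own value and its lowest level above background. The adjusted p was 0.000986 with this floor and 0.000962 in the main fit (limma). The fitted log2 differences against the B6 background readings, which are no bounds, were 3.39 within scan day 1 and 3.48 within scan day 2, the latter from NZO 7 alone and with an adjusted p of 0.0529. Normexp background correction gave 0.78. The fitted value, again no bound, was 3.19 with the slide as a fixed term and 4.47 with the mouse number as a block. Neither passed the adjusted threshold.

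Cyp2b13, whose promoter letters are close to those of Cyp2b9, and Cyp2b23 were not well above background on any of the 8 arrays. The Cyp2b13 probe A_52_P289091 (mm9 chr7:26880905-26880964, plus strand) read -5.14, -4.63, -4.30 and -4.20 in NZO and -6.02, -4.75, -5.10 and -6.53 in B6, with NZO 7 below the highest B6 values. The Cyp2b23 probe A_55_P2162645 (mm9 chr7:27450250-27450309, minus strand) read -5.89, -6.03, -5.98 and -5.07 in NZO and -6.75, -5.85, -5.91 and -5.15 in B6. Both sets of values overlapped between the strains and no fold is given for either gene. Without the filter on dim probes, the adjusted p was 0.276 for Cyp2b13 and 0.826 for Cyp2b23 (limma).

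The 2 probes shared by Cyp2a4 and Cyp2a5, the testosterone and the coumarin hydroxylase, were both lower in NZO liver. The intron-spanning probe A_52_P9703 had levels of 2.89, 2.997, 3.37 and 3.35 in the NZO mice and of 4.12, 4.02, 5.30 and 4.42 in the B6 mice. Probe A_55_P2007326 (mm9 chr7:27099880-27099939, plus strand) had levels of 4.64, 4.73, 5.13 and 4.99 in NZO and of 5.89, 5.70, 6.90 and 6.14 in B6. All 8 arrays were well above background for both probes, every NZO mouse was below every B6 mouse, and B6 15 was the highest mouse in both.

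At A_52_P9703, NZO averaged 3.15 ± 0.24 and B6 4.47 ± 0.58 (SD, n = 4 each), a log2 fold change of -1.31 with a standard error of 0.28 (limma adjusted p 0.0156). At A_55_P2007326, NZO averaged 4.87 ± 0.23 and B6 6.16 ± 0.53 (SD, n = 4 each), a log2 fold change of -1.29 with a standard error of 0.26 (limma adjusted p 0.0116). The signal in B6 was thus 2.49-fold and 2.44-fold that in NZO. Whether the strains differ in the sequence under a probe was not tested, here or for the other genes. How much of it belongs to either gene was not separated by these probes. Without B6 15 the log2 fold change was -1.04 for both probes (adjusted p 0.00821 and 0.00797). Within scan day 1 the values were -1.43 and -1.35, and within scan day 2, with NZO 7 as its 1 NZO mouse, they were -1.38 and -1.38. None of these 4 passed the adjusted threshold, with adjusted p between 0.0675 and 0.117 (limma).

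Cyp2a12, which hydroxylates steroids and bile acids, had levels of 7.85, 8.08, 7.97 and 7.99 in the NZO mice and of 7.81, 7.68, 7.78 and 7.73 in the B6 mice (probe A_55_P2126333, mm9 chr7:27821770-27821829, plus strand). The strains did not overlap, but they lay close together. NZO averaged 7.97 ± 0.10 and B6 7.75 ± 0.05 (SD, n = 4 each), and the log2 fold change of 0.22 with a standard error of 0.09 passed neither threshold (limma adjusted p 0.155). Across the other settings its log2 fold change ranged from 0.00 to 0.35.

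Cyp2a22 was well above background only in B6 11 and B6 10 (probe A_55_P2060138, mm9 chr7:27716650-27716709, minus strand). It read -4.72, -5.36, -4.45 and -3.97 in NZO and -3.57, -3.81, -4.68 and -5.77 in B6. The values overlapped, the probe was not tested, and no fold is given.

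**Figure D2:**
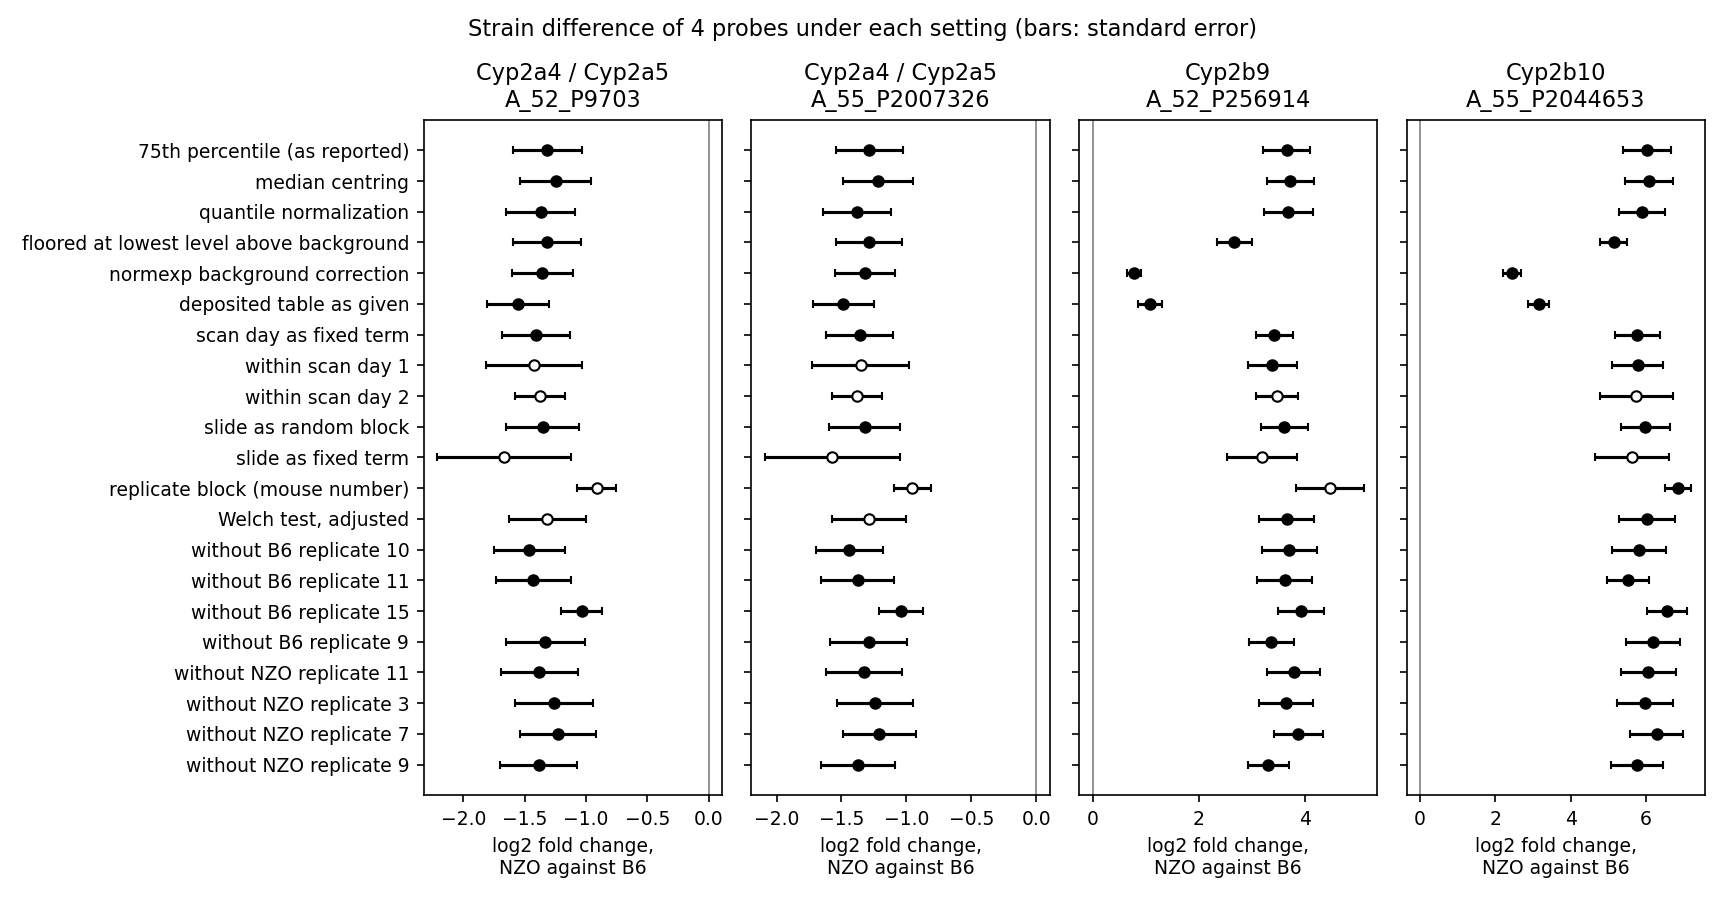
Log2 fold change of NZO against B6 (x axis, bars give the standard error) for the 4 called Cyp2a and Cyp2b probes under the settings named on the y axis, with filled points where the thresholds were passed. No point crosses 0, the values of Cyp2b10 and Cyp2b9 shrink to 2.43 and 0.78 under normexp background correction, and the open points lie in the settings with fewer arrays per comparison or the slide or mouse number as a term, and for the Cyp2a4 / Cyp2a5 probes also in the test that the methods name, after adjustment.

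The variation between mice of a strain was described by the deviations from the strain means over the 8 arrays. The 2 probes of Cyp2a4 and Cyp2a5 varied together (Pearson r 0.993). Cyp2a12 had r of 0.268 and 0.288 with them. No such value is given for the Cyp2b members, which were at background in most B6 mice. These values describe 8 arrays that share their scaling and, in part, their slides. Among 24451 probes above background on all 8 arrays, the genes close to the shared Cyp2a4 and Cyp2a5 probe A_55_P2007326 in this measure included Eif4e3 (r 0.974) and Banp (0.971). Both were picked for having the highest r among all these probes, so that these values are no test of a link.

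The members lie in 1 cluster of Cyp2 genes on chromosome 7. In the RefSeq gene order, 40 genes lie between the outermost members or within 5 genes of them, of which 16 had a probe and 9 were tested. Of the genes outside the members, 9 had a probe and 5 were tested, with 1 higher and 1 lower in NZO. The higher gene was Cyp2g1, known as an olfactory P450, with levels of -1.26, -1.55, -0.98 and -1.42 in NZO and of -3.58, -2.85, -2.45 and -3.77 in B6. The strains did not overlap, and the log2 fold change was 1.86 with a standard error of 0.29 (limma adjusted p 0.00382). Cyp2s1, at the outer end of the cluster, was lower by a log2 fold change of -0.75 with a standard error of 0.11 (limma adjusted p 0.00282). Its levels ranged from -2.51 to -2.21 in NZO and from -1.77 to -1.48 in B6, so that the strains did not overlap. Nlrp9c had a log2 fold change of 0.56 (adjusted p 0.00419), short of the fold threshold. Cyp2f2, a P450 of periportal hepatocytes, had a log2 fold change of -0.02 (adjusted p 0.936) and Cyp2t4 one of 0.24 (adjusted p 0.697). In this order Cyp2a5 directly follows Cyp2g1 and Cyp2a4 lies apart from it, so that the shared signal has no single place in the cluster.

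**Figure D3:**
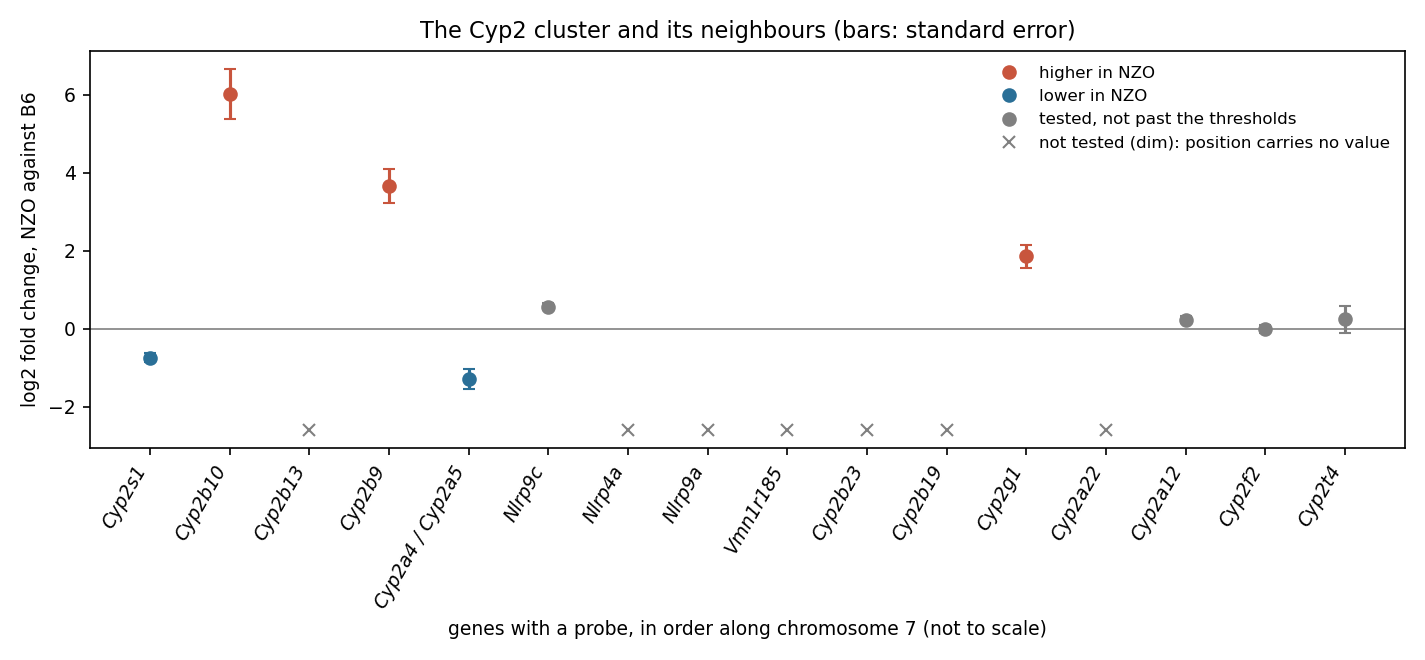
Log2 fold change of NZO against B6 (y axis, bars give the standard error) for the genes of the Cyp2 cluster with a probe, in their order along chromosome 7 (x axis, not to scale). Crosses mark genes too dim to be tested and carry no value. Cyp2b10, Cyp2b9 and Cyp2g1 are higher in NZO, Cyp2s1 and Cyp2a4 / Cyp2a5, drawn at the place of Cyp2a4, are lower, and Cyp2f2 lies at -0.02.

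Of the regulators of the family, CAR was lower in NZO liver. Nr1i3, which encodes CAR, averaged 2.62 ± 0.26 for NZO and 3.63 ± 0.18 for B6 (SD, n = 4 each) at its brightest probe, a log2 fold change of -1.01 with a standard error of 0.16 (limma adjusted p 0.00336). Its second probe gave -1.04 (adjusted p 0.00567). Of 21 listed regulators 20 were tested, and 0 were higher and 1 was lower in NZO, with a median log2 fold change of 0.01. Over all 20131 genes tested at their brightest probe, 4.42% were higher and 5.0% lower, with a median of 0.03. Nr1i2, which encodes the pregnane X receptor PXR, had a log2 fold change of -0.01 (adjusted p 0.981), Hnf4a one of 0.03 (adjusted p 0.912) and Stat5b, which relays growth hormone signals, one of -0.02 (adjusted p 0.931). Esr1, the estrogen receptor, had a log2 fold change of 0.58 (adjusted p 0.0206) at its brightest probe, short of the fold threshold. Its other tested probe gave 0.01 (limma adjusted p 0.982). Onecut1 had a log2 fold change of 1.41 with a standard error of 0.86 and did not pass the test (adjusted p 0.337).

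Of the other known targets of CAR and PXR, 13 genes were tested, of which 6 were lower and 1 was higher in NZO, with a median log2 fold change of -0.40. The P450 genes Cyp2c37, Cyp2c50 and Cyp2c54, which oxidise arachidonic acid, fell by 3.18, 1.08 and 1.24 on the log2 scale at their brightest probes, with adjusted p of 4.43e-06, 0.000832 and 0.000123 (limma). The probes of Cyp2c37 and Cyp2c54 differed in size, and the second probes had values of -1.27 and -0.26, the latter not past the test, while the remaining Cyp2c54 probe gave -1.06 (adjusted p 0.00888). Cyp2c55 averaged -3.61 ± 0.62 for NZO and -0.43 ± 0.60 for B6 (SD, n = 4 each, limma adjusted p 0.00083). The transporters Abcc3 and Slco1a4 fell by 1.25 and 0.93 on the log2 scale (adjusted p 0.000264 and 0.0252). Aldh1a7, an aldehyde dehydrogenase, was higher with a log2 fold change of 1.27 (adjusted p 0.000833). For Cyp3a11, the main PXR target, the brightest probe gave 0.01 (adjusted p 0.991) and the other probe 1.55 (adjusted p 0.00477). This other probe lists transcripts of 4 genes, Cyp3a11, Cyp3a41a, Cyp3a41b and Cyp3a44, so that it does not read Cyp3a11 alone.

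In the list of electron donors and haem supply, 14 genes were tested, of which 1 was higher and 1 lower, with a median log2 fold change of -0.12. Alad, an enzyme of haem synthesis, was higher with levels of 5.92 ± 0.10 for NZO and 4.96 ± 0.07 for B6 (SD, n = 4 each, limma adjusted p 0.000294), while its dimmer probe, with a difference of 0.73 on the log2 scale, did not pass the test (adjusted p 0.275). Hmox1, which degrades haem, was lower at its brightest probe with a log2 fold change of -0.93 (adjusted p 0.00464), while its other probe gave -0.24 and did not pass the test. Por, which passes electrons to all microsomal P450 enzymes, had a log2 fold change of -0.32 (adjusted p 0.354). Alas1, the first enzyme of haem synthesis, had one of -0.41 (adjusted p 0.782).

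Genes known to be more abundant in female mouse liver moved in both directions in these male mice. Of 12 tested, 5 were higher and 2 lower in NZO, with a median log2 fold change of 0.69. Over all genes tested at their brightest probe, 4.42% were higher and 5.0% lower. A1bg, Cyp3a44 and Hao2 entered the test through NZO alone, as all B6 mice were at background. The count and the median therefore depend on the filter. Hao2, a hydroxyacid oxidase, was at least 41.8-fold higher and Cyp3a44 at least 63.5-fold higher, with all B6 mice at background for both. Their limma adjusted p of the main fit, without the floor, was 7.42e-07 and 4.29e-06. The P450 genes Cyp3a41b and Cyp3a16, close relatives of Cyp3a44 of which the former shares its probe with Cyp3a41a, had log2 fold changes of 5.51 and 2.84 (adjusted p 2.89e-06 and 8.24e-05). A1bg was at least 4.24-fold higher (adjusted p of the main fit 0.000229). Cyp39a1, an oxysterol hydroxylase, and Prom1 fell by 5.64 and 0.99 on the log2 scale (adjusted p 2.3e-07 and 0.00192).

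Genes known to be more abundant in male liver were measured beside them. Of 18 tested, 4 were higher and 2 lower, with a median log2 fold change of 0.08. Cyp4a12a and Cyp4a12b, fatty acid hydroxylases that share the probe of the former, had log2 fold changes of 1.30 and 1.32 (limma adjusted p 0.00115 and 0.00193), Cspg5 one of 1.76 (adjusted p 0.00826) and Keg1 one of 0.86 (adjusted p 0.00845). Moxd1 and C6, a complement component, were lower, by -3.85 and -0.74 (adjusted p 0.0228 and 0.0405). Hsd3b5, a steroid dehydrogenase, and Elovl3, a fatty acid elongase, had values of 0.09 and 0.03 and did not pass the test. Mup20, a urinary protein, gave -0.18 at its brightest probe (adjusted p 0.297) and -1.85 at its other probe (adjusted p 0.000398), so that it does not count as lower here although the probes disagree.

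Since members of these families are known to be expressed mainly around the central vein, markers of the liver zones were listed as well. Of 10 pericentral genes tested, 1 was higher and 1 lower, and of 8 periportal genes 0 were higher and 1 was lower, with median log2 fold changes of -0.25 and 0.06. The ammonium transporter Rhbg was higher with a log2 fold change of 1.28 (limma adjusted p 0.00156). The glutamate transporter Slc1a2 was lower with one of -1.48 at its brightest probe (limma adjusted p 6.46e-05). Its other probes gave -0.31, not past the test (adjusted p 0.174), and -0.77 (adjusted p 0.0343). Glul, the glutamine synthetase of pericentral hepatocytes, and Cyp2e1 had values of -0.33 and -0.17 and did not pass the test. Cdh1, the lower periportal gene, had a log2 fold change of -1.01 (adjusted p 0.00162).

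**Figure D4:**
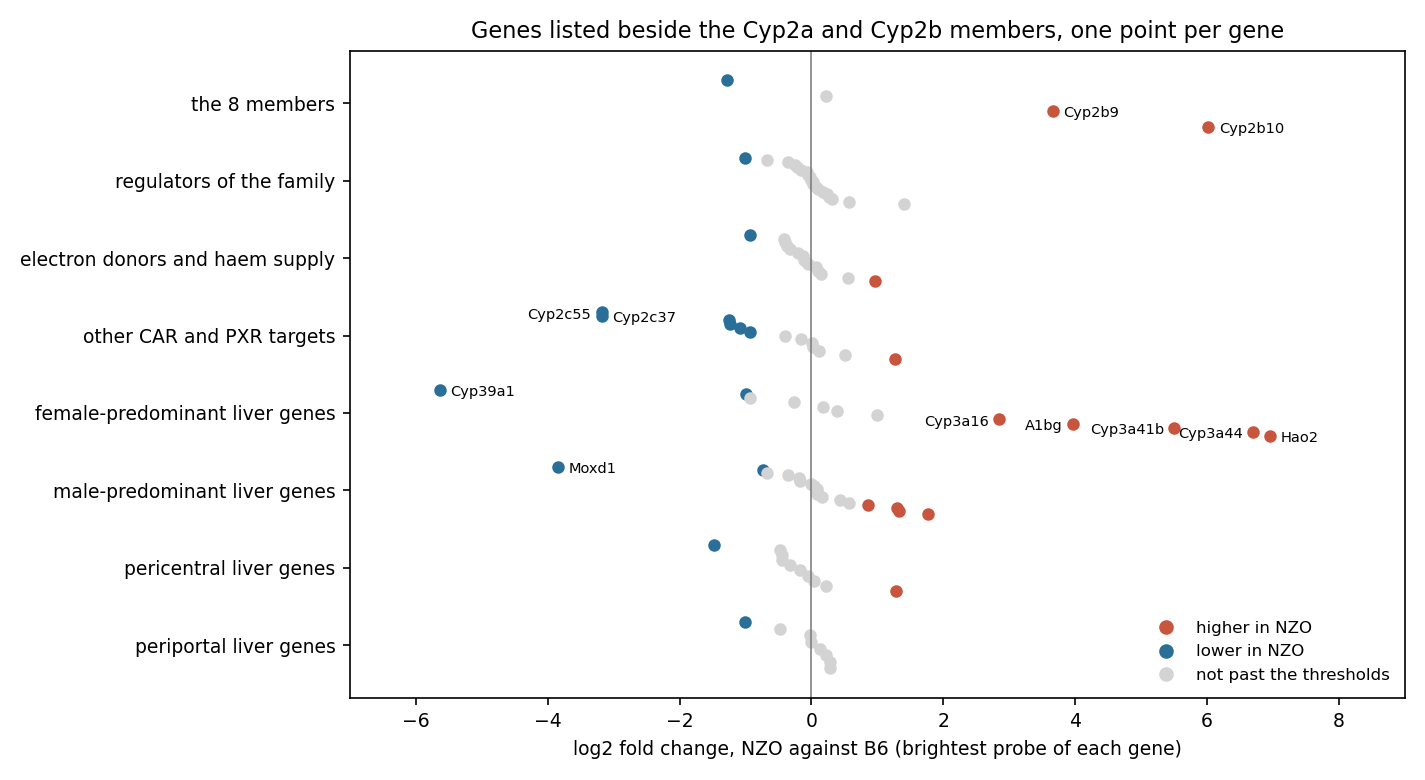
Log2 fold change of NZO against B6 (x axis) at the brightest probe of each tested gene, one point per gene, for the lists on the y axis. Named genes lie beyond 2.5 in either direction, and the points of Cyp2b9, A1bg, Cyp3a44 and Hao2 are measured differences against B6 mice at background, not bounds. The point of Cyp2b10 is a difference against B6 mice largely at background, and also no bound. Cyp2b9 and Cyp2b10 stand to the right, as do Cyp3a16, A1bg, Cyp3a41b, Cyp3a44 and Hao2 of the female-predominant list. To the left lie Cyp39a1 of the same list, Moxd1 of the male-predominant list and the 6 lower genes among the other CAR and PXR targets.

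The label of the tissue was checked with markers. Of 5 hepatocyte markers 5 were tested and 0 changed, with a summed level (log2, relative to the 75th percentile) from 11.89 to 11.94 in NZO and from 11.55 to 11.88 in B6, led by Alb. Of 4 leukocyte and Kupffer cell markers tested, 1 was lower in NZO, the Kupffer cell receptor Clec4f (log2 fold change -1.13, limma adjusted p 0.00085), and their sum ranged from 4.36 to 4.63 in NZO and from 5.29 to 5.77 in B6. Of 3 red blood cell markers tested, 2 were higher, Hba-a1 and Alas2 (1.00 and 0.90, adjusted p 0.0183 and 0.0023), with sums, led by Hba-a1, from 8.19 to 8.87 in NZO and from 7.28 to 7.70 in B6. Of 3 cholangiocyte markers tested, 1 was lower, Sox9 (-1.47, adjusted p 0.00886), with sums, led by Krt19 over all 8 arrays and by Sox9 in B6, from -1.08 to -0.38 in NZO and from 0.19 to 0.61 in B6. The part of these cell types in the Cyp2a and Cyp2b differences was not tested.

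None of the 3 endothelial and 4 stellate cell markers passed the thresholds. Endothelial sums, led by Stab2, ranged from 5.54 to 5.97 in NZO and from 5.28 to 5.37 in B6, and stellate cell sums, led by Col1a1, from 1.14 to 2.004 and from 1.84 to 2.24. The 3 adipocyte markers Adipoq, Plin1 and Lep were not well above background on any array. Of the exocrine pancreas markers, Cela1 and Ctrb1 were tested and did not pass, Pnlip was not well above background on any array, and the sums, led by Ctrb1, ranged from 0.38 to 1.08 in NZO and from 0.25 to 0.70 in B6. The skeletal muscle markers, led by Myh4 over all 8 arrays and by Acta1 in the NZO mean, had a sum of 3.94 in NZO 7, against -3.20 to -1.80 in the other NZO mice and -1.62 to 2.33 in the B6 mice. Without NZO 7 the log2 fold changes were 6.28 for Cyp2b10, 3.88 for Cyp2b9 (both against B6 mice largely or all at background, and no bounds) and -1.23 and -1.21 for the shared Cyp2a4 and Cyp2a5 probes, all past the thresholds (limma adjusted p up to 0.0407).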

How the data were processed

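The authors isolated liver RNA with TRIzol, kept samples of high RNA integrity and deposited the scanner output of 8 one-colour Agilent arrays, 1 per mouse, with intensity values of 59305 spots. Per the file headers the intensity values were made with Agilent Feature Extraction 11.0.1.1, while the submitters' processing notes name version 9.1. The processed signal used here is background-subtracted within each array and not scaled between arrays. The deposited table of all arrays, named as normalized, equalled the raw median intensity for all 55681 probes (tolerance 0.01), so it served as an alternative only. Array annotation is on mm9.

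Spots of controls were dropped, as were 96 to 137 outlier spots on each array. The log2 signal was set relative to each array's 75th percentile, spots of a probe were averaged, and probes were kept separate. NZO and B6 were compared with limma (version 3.58.1, on R 4.3.3), on 27634 probes well above background on all 4 arrays of a strain. The methods' thresholds of p (0.05) and log2 fold change (0.7) were used, with the adjusted p. Probes were named by accession (27656), symbol (3347), synonym (312) or another accession (85), and 24281 kept the name in the files. Named were all member probes, the listed genes at their brightest probe, that of highest mean level, the neighbours on the chromosome, and the 3 genes most like Cyp2a5 and Cyp2b10 (at their brightest probe). Some genes under this rule are not reported here. The members and lists were chosen with earlier results of these data known. The fit was tested on simulated data. Tables and plots were made with pandas 2.3.3 and matplotlib 3.10.9 on Python 3.11.15.

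Alternatives were normexp (offset 50), quantile and median scaling, the deposited table, other filters, the unadjusted p, the Welch test of the methods, slide, scan day and mouse number as terms, values within slide and scan day, and leaving out each mouse. Mouse numbers 9 and 11 occur in both strains, but same-numbered mice did not deviate together (r -0.29 and -0.03), so they were not treated as pairs.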

Additional observations from a re-analysis of the deposited data

Results flagged for a closer look

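A mouse stood far from the other 3 of its strain in 20 of 264 groups of 4 arrays looked at, by a gap over range above Dixon's critical value. Chance alone flags about 1 in 20 such groups. Among the Cyp2a and Cyp2b probes 1 of 16 groups stood out: Cyp2b23 read -5.07 in NZO 11, at background, against -6.03 to -5.89 in the other NZO mice.

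Of the electron donors and haem enzymes, Por was low in NZO 9 (3.02), Urod was high in NZO 3 (6.18) and Ppox was low in B6 15 (1.76). Of the CAR and PXR targets, B6 15 was lowest of its strain in Cyp2c50 (7.02) and Cyp2c54 (6.95), and Cyp3a11 was low in NZO 7 (6.39) and in B6 10 (5.92). B6 15 was also the B6 mouse with the highest shared Cyp2a4 and Cyp2a5 signal and the highest Cyp2b10 level.

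Of the sex-dependent genes, Trim24 was low in NZO 7 (0.96), C6 was low in NZO 9 (3.81) and Cyp4a12a was high in B6 9 (4.96). Of the zonal and hepatocyte genes, Gulo was low in NZO 7 (7.92) and in B6 15 (7.89), and Tat was low in B6 11 (5.77). Of the other markers, Krt7 read -5.004 in NZO 11, Cd68 read 1.79 in NZO 7, Reln read -0.35 in B6 10, Cela1 read -2.55 in B6 15 and Ctrb1 read -0.23 in B6 11. Acta1, a muscle actin, read 2.81 in NZO 7 against -4.13 to -2.95 in the other NZO mice.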

How the results depend on the processing

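No tested member changed sign under the settings tried. With any 1 mouse left out, 1055 to 1219 probes were higher and 1221 to 1464 lower, against 1198 and 1460 with all mice, and 2 member probes were higher and 2 lower throughout. Normexp gave 615 higher and 583 lower probes, the values deposited for all arrays 575 higher and 1421 lower, only probes above background on all 8 arrays 963 lower, with 0 higher members because Cyp2b9 and Cyp2b10 were then no longer tested, and the methods' Welch test after adjustment 831 higher and 890 lower, with 0 lower members, against 1291 and 1609 with its unadjusted p. The slide as a fixed term gave 497 higher probes, with 0 higher and 0 lower members. Only slide 1 held both strains. The log2 fold changes were then 5.63 for Cyp2b10 and 3.19 for Cyp2b9, against B6 largely or all at background. For the shared Cyp2a4 and Cyp2a5 probes they were -1.67 and -1.57. Within slide 1, with NZO 3 as its 1 NZO mouse against B6 10 and 15 and so assumed to vary like B6, 276 probes were higher and 650 lower, with 1 higher (Cyp2b9) and 0 lower members. Within scan day 1, 800 were lower with 0 lower members, and within scan day 2, 277 were higher and 554 lower with 0 and 0 members. These settings compare fewer arrays. The mouse number as a replicate block gave 72 higher and 134 lower probes, with 1 higher and 0 lower members, and log2 fold changes of 6.86 for Cyp2b10, 4.47 for Cyp2b9 (against B6 at background) and -0.91 and -0.95 for the shared Cyp2a4 and Cyp2a5 probes, of which only Cyp2b10 passed (adjusted p 0.0442). The numbers are shared by 2 mice of each strain only, so that the strain difference in this setting rests on these mice alone. Little is then left to estimate the spread. Any further cause of the change was not tested. The median raw signal was 1.72 to 2.0 times its local background, which limits dim probes such as Cyp2b13, Cyp2b23 and Cyp2a22.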
